A study of Homo sapiens with 10 samples.

Results

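The sites described here are the positions where FOS and JUNB were called together, and JUN was not, in transformed MCF10A-ER-Src cells. The sites were chosen by the measured peak positions of all 5 proteins in transformed cells. A FOS peak on chromosomes 1 to 22 or X was taken when a JUNB summit lay within 300 bp of its own summit and no JUN, STAT3 or NFKB1 summit did. This rule left 9983 of 164605 FOS peaks (6.06%). They touched 9849 distinct JUNB summits, or 9.75% of the 101014 JUNB peaks of the same cells.

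MCF10A-ER-Src is an established line of human breast epithelial cells that carries v-Src, a tyrosine kinase oncogene, joined to the hormone-binding part of the estrogen receptor, and tamoxifen switches the fused kinase on. Chromatin immunoprecipitation with sequencing was done for 5 proteins (FOS, JUN, JUNB, STAT3 and NFKB1), each with an antibody to the protein itself. There was 1 library per protein from non-transformed cells and 1 from cells given 1 μM 4-hydroxytamoxifen for 12 h, and names stored in the deposited lists record 36 h in ethanol, the solvent, for the non-transformed state. All groups carry the ER-Src fusion, and the labels do not say whether the libraries of a state came from 1 culture. The stored names also carry replicate letters that differ, with repB for FOS against repA for JUNB and JUN in transformed cells, and repC for JUNB in non-transformed cells against repA in transformed cells. Whether the proteins or the states were measured in the same cultures therefore cannot be told from these sources, which bears on the calls without JUN and on the ratios between states. With 1 library per protein and state no difference between states or proteins could be tested against replicates, and every interval below is a 95% interval that covers counting and the sampling of sites only.

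AP-1 is a family of dimeric transcription factors. FOS cannot bind DNA as a dimer with itself and pairs with a member of the JUN family, of which JUN and JUNB are the members measured here, while FOS-related and JUN-related proteins such as FOSL1, FOSL2 and JUND were not measured. JUN is known mainly as an activator of growth genes, and JUNB is a weaker activator that can oppose JUN at some genes. STAT3 and NFKB1 are transcription factors of inflammatory signalling that are often found near AP-1 in epithelial cells.

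The coordinates are those of hg19, the build that the submitters' processing notes name. No sequence, motif or nearest gene was analysed here, so positions are given without annotation.

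The 10 libraries held 4837474 to 22082403 reads after the authors' filter. In transformed cells the JUN library held 18454386 reads and the JUNB library 15750765, so the protein that was not called had 1.17 times the depth of the one that was. The STAT3 and NFKB1 libraries of transformed cells were shallower, with 8967267 and 9674390 reads. The lowest pileup, the number of reads over the summit, in the JUN list was 5 reads (0.271 RPM, reads per 1000000 filtered reads of the library), and in the JUNB list of the same cells it was also 5 reads (0.317 RPM). For JUN the 5 reads are the lowest listed height and not a limit of detection, because peaks were called by q-value. Among JUN peaks within 300 bp of FOS peaks of transformed cells, the 5th percentile was 7 reads and the median 15. A site "without JUN" therefore has no listed JUN summit within 300 bp, which does not exclude uncalled JUN or a wide JUN peak.

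The rule used the values of all 5 proteins in transformed cells, and those values are given as a description. JUNB lay within 300 bp at 90746 FOS peaks, and at 14521 of these (16.0%) JUN was not called. STAT3 or NFKB1 was called at 4538 of the 14521, STAT3 at 3345 and NFKB1 at 2123, which left the 9983 sites. The other FOS peaks with neither STAT3 nor NFKB1 nearby fell into 3 classes that serve for comparison. FOS was called alone at 41116 sites, with JUN but not JUNB at 11727 sites, and with both JUN and JUNB at 19385 sites.

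The sites were of low to middling height. The median FOS pileup was 14 reads, with the middle of the distribution between 10 and 18 reads and a highest value of 64. The median JUNB pileup was 9 reads, between 8 and 12 for the middle of the distribution, with a highest value of 80. FOS peaks here were taller than at sites of FOS alone (median 10 reads) and of FOS with JUN (11 reads), and lower than at sites with FOS, JUN and JUNB (22 reads) and over all FOS peaks (16 reads). JUNB stood lower than at sites with all 3 AP-1 proteins, where its median was 13 reads. The deposited fold enrichment over local background had a median of 7.25 for FOS and 5.71 for JUNB, and the peaks were narrow, with median lengths of 169 bp and 152 bp.

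**Figure D1:**
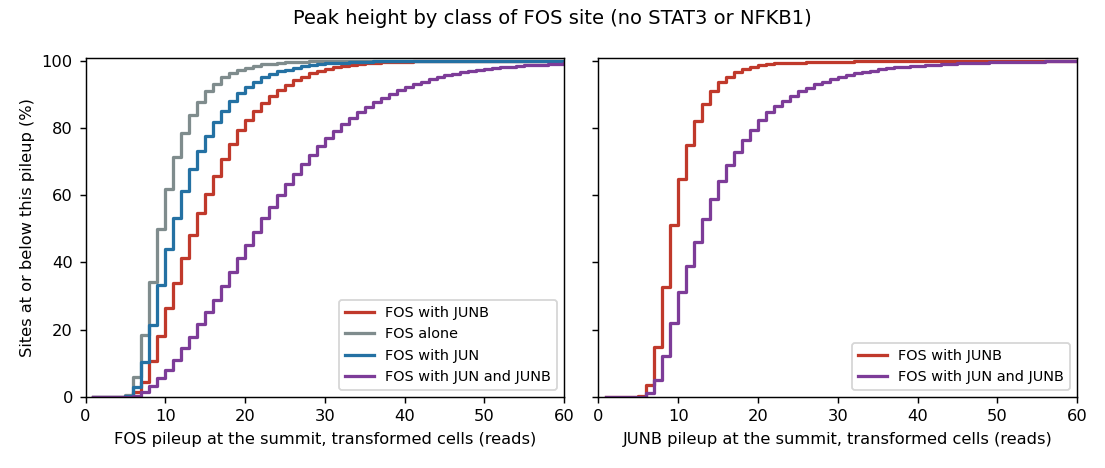
Cumulative share of sites (%) against the FOS pileup (left) and the JUNB pileup (right) at the summit in transformed cells, in reads, with 1 line per class of FOS site without STAT3 or NFKB1. Sites with FOS and JUNB have a median of 14 FOS reads, between FOS with JUN (11) and FOS with JUN and JUNB (22), and their JUNB curve (median 9) lies to the left of that of sites with all 3 proteins (13).

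FOS and JUNB were of about equal height once each was divided by the reads of its library. The median ratio of FOS to JUNB pileup in RPM was 1.02, with the middle of the distribution between 0.793 and 1.32. FOS was the higher at 5080 sites (50.9%). It was at least 2-fold higher at 355 sites (3.56%), and JUNB was at least 2-fold higher at 328 (3.29%). In RPM neither protein thus led over the group as a whole. At sites with JUN and JUNB the median ratio was 1.11 and FOS was the higher at 61.8%. By the deposited fold enrichment the median at the FOS and JUNB sites was higher for FOS, at 7.25 against 5.71 for JUNB. Pileups from different antibodies do not measure molecules on a shared scale, and the ratio only orders sites.

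The share of JUNB-bound FOS peaks that belonged to the group was lower the taller the JUNB peak. Sites with FOS and JUNB and none of the other 3 proteins were 30.5% of the JUNB-bound FOS peaks with 5 to 9 JUNB reads, 17.0% of those with 10 to 14, 5.27% of those with 15 to 19, 0.963% of those with 20 to 29 and 0.109% of those with 30 or more. Of the 9983 sites, 5103 were in the lowest range and 23 in the highest. The FOS and JUNB heights of the sites went together only loosely, with a Spearman correlation of 0.375 over the 9983 sites, which share 2 libraries and a limit on low values, against 0.637 over the 19385 sites with all 3 AP-1 proteins.

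The FOS and JUNB summits nearly coincided. The median distance between them was 24 bp (24 to 25), within the 300 bp that the rule allowed. At 4385 sites (43.9%) the summits were at most 20 bp apart, at 136 they were at the same base, and at 685 (6.86%) they were more than 100 bp apart. The JUNB summit lay at the higher coordinate at 48.1% of the sites, so it favoured neither side by much. At sites with FOS, JUN and JUNB the median distance was 18 bp and 55.7% were within 20 bp. In matched ranges of FOS height the classes were closer. From the lowest range of FOS pileup (5 to 9 reads) to the highest (30 or more), the medians were 39, 27, 21, 18 and 15 bp at the FOS and JUNB sites and 42, 25, 20, 17 and 13 bp at the sites with JUN as well.

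**Figure D2:**
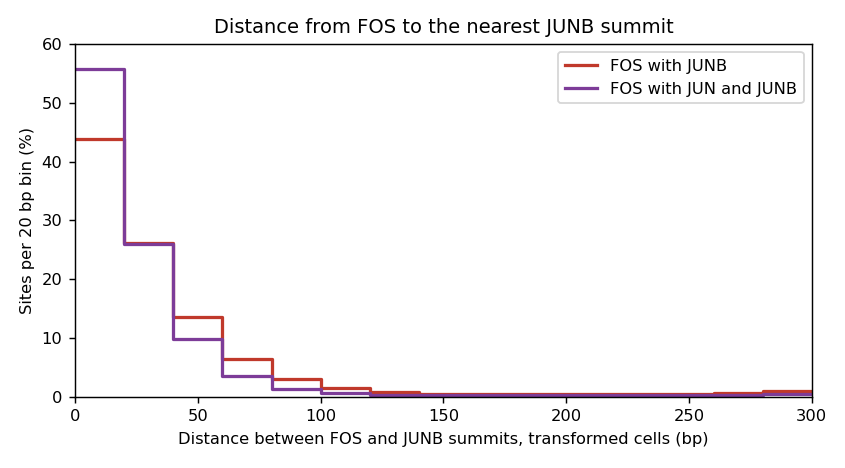
Distance in bp between the FOS summit and the nearest JUNB summit in transformed cells, as the percentage of sites per bin of 20 bp, for FOS sites with JUNB and FOS sites with JUN and JUNB. In both classes the first bin is the fullest, with 43.9% and 55.7% of the sites, and few sites lie beyond 100 bp.

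The rule set the distance to the proteins left out at more than 300 bp, and most sites had none of their summits close beyond that. These distances were taken for the FOS and JUNB sites only, so they are a description. The nearest JUN summit of transformed cells was 301 bp away at the closest site and 6669 bp away at the median, and 3979 sites (39.9%) had none within 10000 bp. A JUN summit stood within 1000 bp of 1444 sites (14.5%), a STAT3 summit within 1000 bp of 962 (9.64%) and an NFKB1 summit of 918 (9.20%). The median distances to STAT3 and NFKB1 were 13004 and 13737 bp.

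A summit rule can miss a wide peak, and a few of the sites overlapped one. The deposited FOS peak overlapped a deposited JUN peak at 74 sites (0.741%), a STAT3 peak at 52 and an NFKB1 peak at 33. These overlaps gathered at long peaks. Of the 9512 sites whose FOS peak was under 300 bp long, 41 overlapped a JUN peak, of the 438 with 300 to 499 bp, 12 did, and of the 33 with 500 bp or more, 21 did.

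The sites at the edge of the rule were weak. Just inside the JUNB limit, 188 sites had their JUNB summit 251 to 300 bp away and a median FOS pileup of 9 reads. Just outside, 713 FOS peaks had JUNB 301 to 350 bp away, also with a median of 9 reads. Beside the JUN limit, 203 sites had a JUN summit 301 to 350 bp away and a median FOS pileup of 10 reads. A further 202 FOS peaks with JUNB were left out for a JUN summit 251 to 300 bp away, with a median of 9 reads.

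The non-transformed lists took no part in the rule. In non-transformed cells a FOS summit lay within 300 bp of 5263 of the sites, or 52.7% (51.7 to 53.7), against 60.7% of all FOS peaks of transformed cells. JUNB was called at 2692 sites, or 27.0% (26.1 to 27.8), against 37.6% of all FOS peaks. JUN was called at 815 sites, or 8.16% (7.64 to 8.72), against 36.1%. All 3 AP-1 shares lay below those of all FOS peaks, which are taller as a whole. For FOS and JUNB this order did not hold at each FOS height, as the ranges of FOS pileup further on show.

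STAT3 and NFKB1 were rarer still at these positions in non-transformed cells, as in the other classes chosen without them. By contrast, 82394 of all FOS peaks (50.1%) had STAT3 or NFKB1 in transformed cells. The non-transformed libraries held 10929003 reads for STAT3 and 4837474 for NFKB1, the fewest of all, against 15852999 for JUN. The part of depth in this order of proteins was not tested. STAT3 was called at 205 sites, or 2.05% (1.79 to 2.35), against 19.8% of all FOS peaks. NFKB1 was called at 19 sites, or 0.190% (0.122 to 0.297), against 6.83%. None of the 5 proteins was called at 4087 sites, or 40.9% (40.0 to 41.9), against 31.9% of all FOS peaks.

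The other classes place these shares. STAT3 was called at 1.38% of the sites of FOS alone, 6.99% of those with JUN and 5.98% of those with JUN and JUNB, and NFKB1 at 0.153%, 0.853% and 0.908%. For both proteins the FOS and JUNB sites, at 2.05% and 0.190%, lay next to FOS alone, the lowest class. None of the 5 proteins was called at 70.7%, 31.8% and 11.8% of the 3 classes. FOS in non-transformed cells was called at 24.0% of the sites of FOS alone, 51.3% of those with JUN and 84.2% of those with JUN and JUNB, so the FOS and JUNB sites, at 52.7%, were near those with JUN. JUNB was called at 7.71%, 17.3% and 56.9% of the 3 classes, with the FOS and JUNB sites between the last 2 at 27.0%. JUN was called at 3.94% of the sites of FOS alone, 28.4% (27.5 to 29.2) of those with JUN and 32.1% (31.5 to 32.8) of those with JUN and JUNB. With 8.16% the sites called without JUN in transformed cells were closer in this share to FOS alone than to either class with JUN. The classes were divided by the JUN call of transformed cells, so this order goes with how they were chosen and is only a description.

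**Figure D3:**
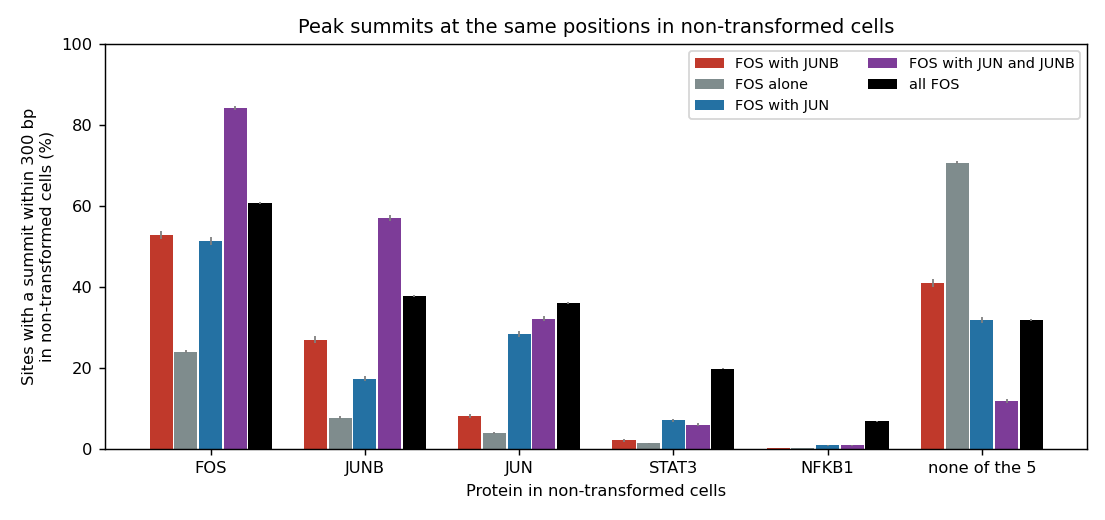
Percentage of sites with a summit of each protein, or of none of the 5, within 300 bp in non-transformed cells, by class of FOS site of transformed cells and for all FOS peaks, with Wilson 95% intervals as thin lines. The bar of the FOS and JUNB sites for JUN stands at 8.16%, against 28.4% and 32.1% in the classes chosen with JUN in transformed cells.

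Height differs between the classes, so the shares were read again within ranges of FOS pileup in transformed cells. At the FOS and JUNB sites with 5 to 9, 10 to 14, 15 to 19 and 20 to 29 FOS reads, JUN was called in non-transformed cells at 8.17%, 7.53%, 7.69% and 8.67%. The share was nearly flat up to 29 reads and reached 16.8% (13.0 to 21.5) at the 297 sites with 30 reads or more. At FOS sites with JUN it was 33.8%, 29.2%, 20.2%, 20.5% and, at 106 sites, 20.8% (14.1 to 29.4). At FOS sites with JUN and JUNB it was 28.6%, 22.7%, 23.7%, 30.0% and 48.3%. The intervals of the FOS and JUNB sites lay below those of both classes with JUN in the first 4 ranges. In the tallest range they overlapped that of FOS with JUN. At sites of FOS alone the share was 3.71%, 3.95%, 4.41%, 6.06% (4.78 to 7.65) and, at 42 sites, 14.3% (6.72 to 27.8). These values lay below those of the FOS and JUNB sites, but the intervals overlapped in the tallest 2 ranges. A low JUN share was therefore not particular to the FOS and JUNB sites.

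FOS and JUNB in non-transformed cells became more frequent with the FOS height of the sites. FOS was called at 39.7% of the FOS and JUNB sites in the lowest range and at 49.5%, 58.4%, 62.2% and 68.0% in the next 4. JUNB was called at 17.8%, 24.7%, 29.9%, 34.3% and 42.1%. Sites with JUN as well as JUNB were higher in every range, with 62.7% to 93.8% for FOS and 33.1% to 77.8% for JUNB. Over all FOS peaks FOS was called at 24.5%, 42.8%, 63.0%, 79.0% and 95.1% and JUNB at 8.38%, 15.5%, 27.6%, 45.9% and 81.8%. The FOS and JUNB sites were thus above all FOS peaks for FOS in the lowest 2 ranges and for JUNB in the lowest 3, and below them in the taller ranges. JUN over all FOS peaks was called at 15.2%, 19.4%, 24.1%, 35.6% and 74.2%, above the FOS and JUNB sites in each range. Against FOS with JUN the order changed with height: for FOS the FOS and JUNB sites were the higher in the lowest range (39.7% against 34.0%) and the lower in the tallest (68.0% against 87.7%).

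**Figure D4:**
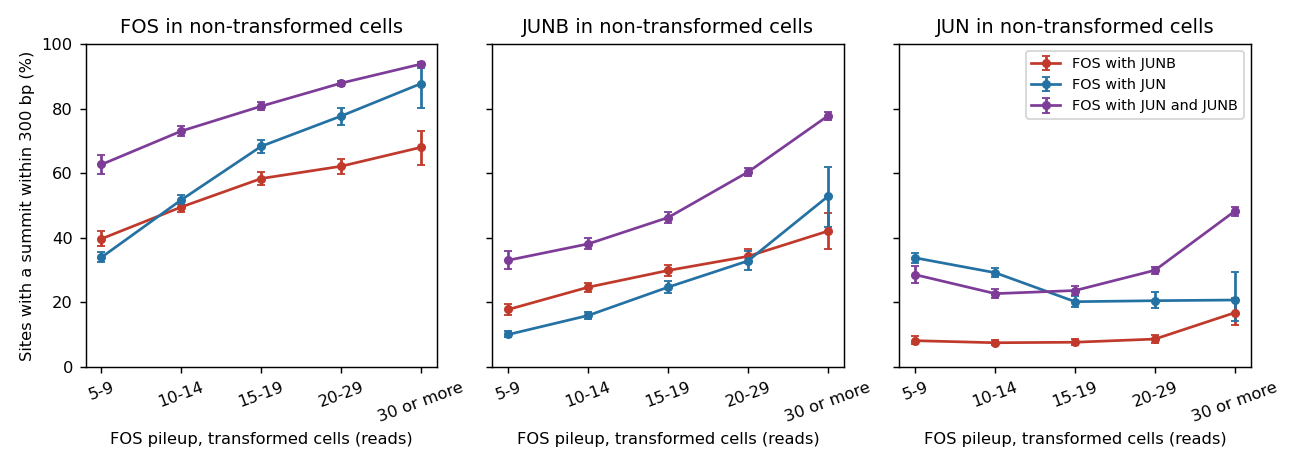
Percentage of sites with a FOS (left), JUNB (middle) or JUN (right) summit within 300 bp in non-transformed cells, against the FOS pileup in transformed cells in 5 ranges of reads, for 3 classes of FOS site, with Wilson 95% intervals as bars. Sites of FOS alone are not drawn. The JUN share of the FOS and JUNB sites is between 7.53% and 8.67% below 30 reads and 16.8% from 30 reads on, while their FOS and JUNB shares rise from range to range.

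The same reading by JUNB height gave a like order against sites with JUN and JUNB. JUNB was called in non-transformed cells at 22.2% of the FOS and JUNB sites with 5 to 9 JUNB reads and at 29.8%, 39.7%, 48.7% and 52.2% in the next 4 ranges, the last of 23 sites. At sites with JUN and JUNB the values were 36.8%, 50.1%, 65.7%, 78.7% and 91.5%. JUN in non-transformed cells was called at 7.51%, 8.14%, 10.1%, 17.8% and 34.8% of the FOS and JUNB sites against 24.3%, 25.4%, 34.6%, 45.2% and 64.1%. Over all FOS peaks with JUNB, JUNB was called at 26.2%, 40.9%, 59.9%, 78.2% and 94.7%, and JUN at 26.6%, 32.2%, 47.2%, 65.5% and 88.3%. In each range of JUNB height the FOS and JUNB sites had a lower share of both proteins than either group.

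The proteins of non-transformed cells fell into few combinations at these sites. FOS was called without the other 4 proteins at 2696 sites (27.0%, against 15.6% of all FOS peaks). FOS and JUNB together, the combination of the transformed cells, were called at 1810 (18.1%, against 9.88%). That combination was found at 4.51% of the sites of FOS alone and 8.82% of those with JUN. At sites with JUN and JUNB it was found at 28.7%, so it was not particular to the FOS and JUNB sites. JUNB was called by itself at 413 sites (4.14%, against 1.70%) and FOS with JUNB and JUN at 356 (3.57%, against 11.4%). FOS with JUN was called at 237 (2.37%, against 4.31%) and JUN by itself at 138 (1.38%, against 2.73%). Sites with FOS and JUNB in both states stood higher in transformed cells, with medians of 16 FOS and 10 JUNB reads, than sites with none of the 5 proteins in non-transformed cells, with medians of 13 and 9. At the 815 sites with JUN in non-transformed cells its peak was low, with a median pileup of 8 reads and a highest value of 39, the same median as at sites of FOS alone, against 10 reads in both classes with JUN and 12 reads over all FOS peaks with such a JUN peak.

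The reverse reading started from the non-transformed cells. There 17859 FOS peaks, or 14.9% of 119754, had JUNB within 300 bp and none of JUN, STAT3 and NFKB1. In transformed cells a FOS summit was called at 16198 of those positions (90.7%), a JUNB summit at 13282 (74.4%) and a JUN summit at 12382 (69.3%). Over all non-transformed FOS peaks JUNB was called at 65.1% and JUN at 71.7%. The JUN share at the FOS and JUNB positions was thus near that of the whole list. Their JUNB share was higher than that of the whole list, at positions chosen for JUNB in non-transformed cells. For FOS and for the combinations no share over the whole list was taken, so those counts are only a description. FOS and JUNB without the other 3 proteins were called in both states at 1794 of the 17859 (10.0%), whereas FOS, JUNB and JUN were called in transformed cells at 5560 (31.1%). Few positions were therefore in this class in both states, although FOS and JUNB were each still called at most of the non-transformed positions.

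At sites with a summit in both states the heights could be set side by side. FOS was called in both at 5263 sites, with medians of 0.698 RPM in non-transformed cells and 0.679 RPM in transformed cells and a median ratio, transformed over non-transformed, of 0.913 (0.901 to 0.928). The ratio passed 1.5-fold upwards at 832 sites (15.8%, against 18.3% of all such FOS peaks) and 1.5-fold downwards at 1365 (25.9%, against 21.1%). Over all FOS peaks the median ratio was 0.937. The like classes were close to the FOS and JUNB sites in the downward share, with 25.1% for FOS alone, 26.7% for FOS with JUN and 27.0% for FOS with JUN and JUNB, and their median ratios were 0.843, 0.843 and 0.899. With the deposited fold enrichment in place of RPM the median at the FOS and JUNB sites was 1.00, so FOS had no direction that held on both scales.

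JUNB in RPM had a lower median in transformed cells over the sites where it was called in both states. At these 2692 sites the medians were 0.872 RPM in non-transformed cells and 0.635 RPM after transformation, with a median ratio of 0.712 (0.699 to 0.728). It passed 1.5-fold upwards at 69 sites (2.56%, against 18.8% of all FOS peaks with JUNB in both states) and 1.5-fold downwards at 1219 (45.3%, against 20.8%). In RPM, FOS sites with JUN and JUNB, where the median ratio was 0.807 (0.801 to 0.816), went the same way, with 9.40% up and 34.6% down. The rule used the transformed value, and only sites above the lowest listed height of each library enter: this was 0.436 RPM for JUNB in non-transformed cells and 0.317 RPM in transformed cells. By fold enrichment the median ratio was 0.953 at the FOS and JUNB sites, with 10.2% up and 15.2% down. On that scale it was 1.08 at FOS sites with JUN and JUNB, with 22.3% up and 12.5% down, and 1.27 over all FOS peaks. The direction at sites with JUN and JUNB thus changed with the scale. The JUNB libraries also differed in depth by a factor of 1.72 and in the share of redundant reads, which was 0.5 in non-transformed cells and 0.31 in transformed cells. The part of these differences in the result was not tested.

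The 10 strongest sites, by the sum of their FOS and JUNB ranks in −log10 q-value, show the range of what the class holds. Of these, 4 were wide peaks that overlapped a deposited JUN peak whose summit lay over 300 bp off. All 4 also overlapped an NFKB1 peak, and 3 of them a STAT3 peak. The summit rule thus kept sites that by whole peaks were not free of these proteins. The first was chr10:1540852-1542171, with 64 FOS and 80 JUNB reads in transformed cells and 36 FOS reads in non-transformed cells, where no other protein was called, and the nearest JUN summit of transformed cells was 940 bp away. The peaks it overlapped held 49 JUN and 6 NFKB1 reads. The second was chr6:124524681-124525479, with 54 FOS and 39 JUNB reads, beside overlapping peaks of 35 JUN, 28 STAT3 and 24 NFKB1 reads. In non-transformed cells it carried 78 FOS, 27 JUNB, 24 JUN and 19 STAT3 reads, the fullest of the 10 in that state. The third, chr19:41221451-41223001, had 62 FOS and 34 JUNB reads, overlapping peaks of 34 JUN, 89 STAT3 and 25 NFKB1 reads, and no protein called in non-transformed cells. The sixth, on chromosome 8, had 56 FOS and 24 JUNB reads in transformed cells, beside overlapping peaks of 31 JUN, 62 STAT3 and 18 NFKB1 reads, and 14 FOS and 8 JUN reads in non-transformed cells.

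The other 6 were narrower and overlapped no JUN, STAT3 or NFKB1 peak of transformed cells. At chr10:68760551-68760758 FOS had 44 and JUNB 30 reads in transformed cells and 30 and 14 reads in non-transformed cells, with the nearest JUN summit of transformed cells 14596 bp away. In RPM these were 1.99 and 1.90 in transformed cells and 1.61 and 1.53 in non-transformed cells. At this position both proteins were thus called in both states and JUN was called in neither. At chr4:91241830-91242059 FOS had 41 and JUNB 30 reads in transformed cells, against 14 FOS reads and no JUNB peak in non-transformed cells.

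At chr3:84214568-84214724 both JUN proteins were called in non-transformed cells. FOS had 40 reads in both states, which were 2.15 RPM in non-transformed cells and 1.81 RPM in transformed cells. JUNB had 29 reads (3.16 RPM) in non-transformed cells and 26 (1.65 RPM) in transformed cells. A JUN peak of 16 reads was called in non-transformed cells, and the nearest JUN summit of transformed cells was 4345 bp away. The remaining 3 positions had no peak of any of the 5 proteins in non-transformed cells. These were chrX:25567069-25567414 with 38 FOS and 27 JUNB reads, chr18:48364535-48365007 with 46 and 24, and chr14:71103024-71103224 with 37 and 28. They lay 2049, 1499 and 4906 bp from the nearest JUN summit of transformed cells.

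**Figure D5:**
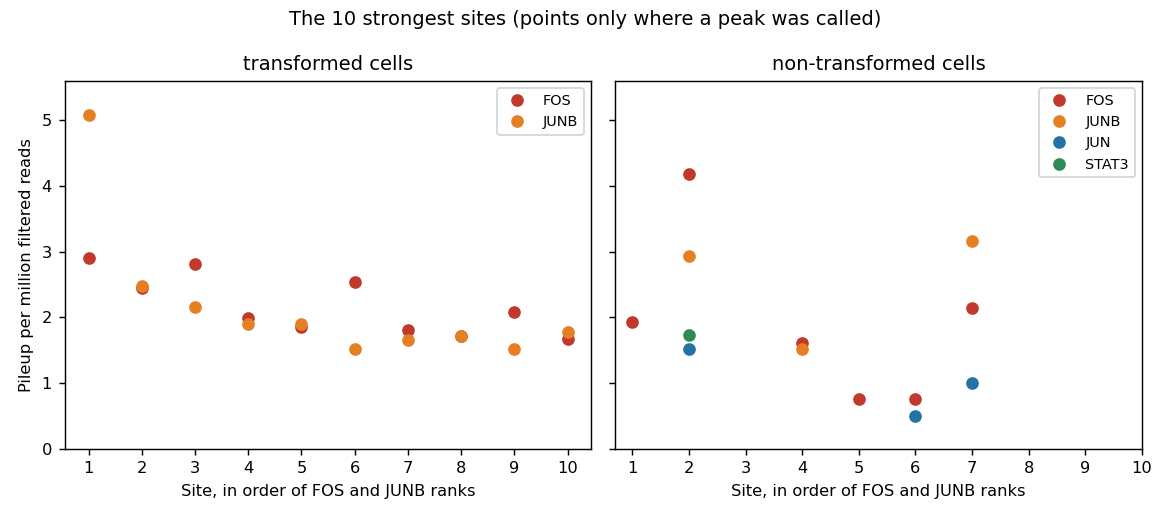
Pileup in RPM at the 10 strongest FOS and JUNB sites, in order of their ranks, in transformed cells (left) and non-transformed cells (right), with 1 point per protein where a peak was called and no error bars, since each point is 1 library. FOS and JUNB lie between 1.52 and 5.08 in transformed cells at all 10 sites, and 4 of the 10 have no point in non-transformed cells.

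After the 3 of these sites with JUN in non-transformed cells, the next strongest sites with JUN there were narrow peaks far from JUN in transformed cells. At chr2:191316620-191316836 the reads in transformed cells were 41 for FOS and 25 for JUNB, and in non-transformed cells 25 for FOS, 22 for JUNB and 10 for JUN. At chr4:153958170-153958392 they were 38 and 24 in transformed cells and 20, 14 and 12 in non-transformed cells. The nearest JUN summits of transformed cells were 7721 and 13328 bp away. These positions had a JUN peak only in the non-transformed list, at heights of 0.631 and 0.757 RPM.

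JUNB and JUN in non-transformed cells were more frequent among the first 100 sites of this order than among the first 1000. Among the first 10, JUNB was called at 3 and JUN at 3. Among the 100 strongest sites FOS was called in non-transformed cells at 66, JUNB at 50 and JUN at 22. Among the 1000 strongest the shares were 66.0%, 40.6% and 11.7%. No share over all FOS peaks was taken in this order. By FOS height, the shares over all FOS peaks also rose from the lowest to the tallest range. They went from 8.38% to 81.8% for JUNB and from 15.2% to 74.2% for JUN, so the rise was not particular to these sites.

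The sites were spread over the genome, and most had no other of the kind within 10000 bp. They numbered 85 on chromosome 22 to 911 on chromosome 2. As a share of the FOS peaks with JUNB they made up 15.0% on chromosome X (400 of 2675) and 8.19% on chromosome 19 (93 of 1135), the highest and the lowest, with 8.99% to 12.6% on the others. The nearest other site of the kind was 82739 bp away at the median, although the nearest FOS peak of any kind was 4478 bp away. Another of the kind lay within 1000 bp of 379 sites (3.80%). Within their own class the medians were 17546 bp for FOS alone (7.27% within 1000 bp) and 59070 bp for FOS with JUN (5.46%). For FOS with JUN and JUNB the median was 40208 bp (4.81%). These classes hold more sites, and the part of class size in the distances was not tested. When sites up to 10000 bp apart were joined, 8868 (88.8%) remained single, 475 runs held 2 sites, 41 held 3 and 8 held 4. A single longer run of 10 sites lay at chr1:145071839-145104673, a stretch with 30 FOS peaks in all.

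The distance to the positions where all 5 proteins met in transformed cells, of which there were 36504, was also taken. The rule bars JUN, STAT3 and NFKB1 summits within 300 bp, and no distance was taken for positions at large. The values therefore do not show whether the sites lay near such positions or away from them. The nearest such position was 28261 bp away at the median, and 18.1% of the sites had one within 5000 bp. The value was 27905 bp for FOS with JUN and JUNB (16.1% within 5000 bp), 22297 bp for FOS with JUN (21.4%) and 21935 bp for FOS alone (25.4%). In this the FOS and JUNB sites were close to the FOS sites with both JUN proteins.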

How the data were processed

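Chromatin immunoprecipitation sequencing of 5 proteins in 2 states gave 10 peak lists, 1 sample per group, mapped to groups from the sample labels. Per the file headers, the authors called peaks per library with MACS 2.0.10.20131216 from 36 bp reads without a control library, at a q-value limit of 0.05. Bowtie, MACS2 and hg19 are named in the submitters' processing notes. The deposited pileup is a signal: reads over the summit, not scaled for depth. Significance was deposited as −log10 p-values and −log10 q-values. Fold enrichment was deposited as a ratio, pileup over local background. RPM is the pileup divided by the filtered reads given in the header, times 1000000.

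Summits within 300 bp were matched on chromosomes 1 to 22 and X with Python 3.11.15, numpy 2.4.6, pandas 2.3.3 and scipy 1.17.1, and figures used matplotlib 3.10.9. The matching was tested on simulated data. Shares have Wilson 95% intervals and medians order-statistic intervals, and nothing else was tested. The named sites were the first 10 by the sum of ranks in −log10 q-value, with the first 5 with JUN in non-transformed cells and the first 5 without JUN in either state. The members, classes and rules were chosen with earlier results of these data known.

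Alternatives were limits of 150 and 500 bp, overlap of whole peaks, a stricter q-value, merged sites and fold enrichment. Added after seeing the data were an exclusion within 1000 bp for the shares, a rule without STAT3 and NFKB1, JUN shares of the other classes and ranges of pileup. Distances to transcription starts, motifs and gene names were not run, because the reference at hand was of another build than hg19.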

Additional observations from a re-analysis of the deposited data

How the results depend on the processing

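Of 62 alternative values, 6 were numbers of sites, of which 5 lay within 1.5 times the reported number, and 56 were shares, ratios or distances, of which 27 lay within the 95% interval of the reported value. In all 27 values moved past these limits and 3 changed direction. With limits of 150 and 500 bp the sites numbered 10202 and 9640, by overlap of deposited peaks 9976, after merging 9982 and with the other 3 proteins absent within 1000 bp 8309. The median FOS to JUNB distance was 23 bp at the 150 bp limit. By overlap of deposited peaks the non-transformed shares were 7.49% for JUN, 1.60% for STAT3 and 0.0802% for NFKB1. Sites with FOS and JUNB at a −log10 q-value of 9.41 or more numbered 1212, with shares of 64.9% for FOS, 41.3% for JUNB, 10.6% for JUN and 0.330% for NFKB1, a median distance of 17 bp and height ratios, transformed over non-transformed, that turned to 1.15 for FOS (786 sites called in both states) and 1.02 for JUNB (500 sites). That limit keeps only sites high in transformed cells, which by construction raises the ratio. By fold enrichment the ratios were 1.00 for FOS, a change of direction from 0.913, and 0.953 for JUNB. Of the alternatives chosen after seeing the data, absence within 1000 bp gave 7.27% for JUN, 1.48% for STAT3 and 0.108% for NFKB1, and leaving STAT3 and NFKB1 out of the rule gave 50.5% for FOS, 25.3% for JUNB, 10.2% for JUN, 4.92% for STAT3 and 1.49% for NFKB1. Where 150 bp, 500 bp, peak overlap or the stricter limit on FOS was applied to the other classes, the JUN share was 3.53% to 4.51% for FOS alone, 20.8% to 29.0% for FOS with JUN and 31.9% to 33.6% for FOS with JUN and JUNB. No paired analysis was possible because each protein had 1 sample per state. Depth limits what "not called" means. No JUN peak under 5 reads is in the list, and that height is not a fixed limit, since calls were by q-value. The non-transformed JUNB library had 9178601 reads against 15750765, so the lower share of JUNB there cannot be told apart from depth.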
